A study of Homo sapiens with 6 samples.

Results

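UGDH (Gene ID 7358) was examined with 8 further genes of UDP-sugar and hyaluronan metabolism in 6 RNA-seq libraries of 3 non-small cell lung cancer (NSCLC) cell lines. The 9 genes, out of 46427 in the expression table, were UGDH, UGP2, UXS1, HAS2, HAS3, CD44, HYAL1, HYAL2, and CEMIP, taken by gene symbol. They were chosen as the enzymes, synthases, receptor, and hyaluronidases around UGDH, and UGDH itself was chosen by its measured read counts, which were lower after si-MALAT1 in each line. That fall is therefore given as a description with no test. H460, a large cell carcinoma line, H1299, a line from a lymph node metastasis, and A549, an adenocarcinoma line, were each represented by 1 control library and 1 si-MALAT1 library. The control libraries carry the treatment label "non", and the si-MALAT1 libraries come from cells given a small interfering RNA against MALAT1, a nuclear long non-coding RNA. A non-targeting si-Control was also part of the study, and which kind of control was sequenced is not given beyond that label, so an effect of transfection itself cannot be told apart from that of si-MALAT1. Each line is a single established culture, and the controls carry no other alteration in the labels.

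Hyaluronan is a long sugar chain of the extracellular matrix, built from UDP-glucuronic acid and UDP-N-acetylglucosamine by synthases in the plasma membrane. UGP2 makes UDP-glucose, UGDH oxidizes it to UDP-glucuronic acid, and UXS1 converts part of that product to UDP-xylose, the sugar that starts glycosaminoglycan chains on proteoglycans. HAS2 and HAS3 polymerize hyaluronan, CD44 is its main cell surface receptor, and HYAL1, HYAL2, and CEMIP take part in its breakdown. In the lung, hyaluronan is a normal component of the matrix and is known to accumulate in many carcinomas.

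The libraries held between 42506818 and 68515992 assigned reads. MALAT1 was lower after si-MALAT1 in each line, by log2 fold changes of -2.84 (A549), -2.96 (H1299), and -2.32 (H460). Of 5 epithelial markers, KRT8 and KRT18, both keratins, were at 123 TPM or more (TPM is the authors' unit of level per transcript length and depth) in all 6 libraries, while PTPRC (leukocyte) and SFTPB (alveolar surfactant) had 0 reads in all 6. The epithelial adhesion gene CDH1 reached 27.8 and 39.4 TPM in the A549 libraries and at most 0.0468 TPM in H460 and H1299. EPCAM was at most at 0.776 TPM in H460 and H1299 and at 3.61 and 8.04 TPM in A549, and KRT19 was at 550 and 399 TPM in H460 and at most at 2.23 TPM in the other lines. The mesenchymal marker VIM was high as well, at 842 and 721 TPM in H460, 1840 and 2120 TPM in H1299, and 446 and 547 TPM in A549. Of the 2 fibroblast collagens, COL3A1 was at 15.5 and 12.9 TPM in H460 and at 10.2 and 8.56 TPM in A549, against 0 and 0.0769 TPM in H1299. COL1A1 was higher after si-MALAT1 in each line, at 1.29 and 2.03 TPM for A549, 0.505 and 1.32 TPM for H460, and 0.109 and 0.482 TPM for H1299, control first. As these are bulk libraries, fewer cells expressing a gene and less RNA per cell cannot be told apart.

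UGDH lies on the minus strand of chromosome 4 (GRCh38, 39498755 to 39527439), with 4 annotated transcripts. Its 3′ untranslated region (UTR), of 1388 bases in the longest coding transcript, carries the 7-base word ATGAATC once, at position 484 of the UTR. The word was looked for on the transcript strand together with TGAATCA, because an earlier analysis of these data had pointed to both, and the site is shown since it is the 1 match among the 9 genes. The 30 bases around it at chr4:39499641-39499670, minus strand, with the word in capitals, read as follows.
UGDH: atctggtaattATGAATCtagaattttttt
None of the other 8 genes held either word in the 3′ UTR of its longest coding transcript. Over 13277 genes with a mean of at least 50 reads, 10.3% of 3′ UTRs held ATGAATC, 13.8% held TGAATCA, and 18.7% held at least 1 of these overlapping words. The match is a description of the letters only, and the sequence of the siRNA is not given in the sources used here.

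Reads of UGDH numbered 17747 (control) and 10017 (si-MALAT1) for H460, 4617 and 1753 for H1299, and 19303 and 6836 for A549. Per length, A549 had 182 and 57.9 TPM, H460 had 101 and 54.6 TPM, and H1299 had 26.4 and 11.5 TPM. Both H1299 libraries were below the other 4, and the si-MALAT1 libraries of H460 and A549 ended close together from controls that stood apart. Scaled read counts were 1.67-fold lower after si-MALAT1 in H460, 2.4-fold lower in H1299, and 3.12-fold lower in A549. On the log2 scale, with 1 added to each scaled count, the change was -1.64 (95% interval -1.68 to -1.60) for A549, -1.27 (-1.35 to -1.19) for H1299, and -0.74 (-0.78 to -0.71) for H460. These exact Clopper-Pearson intervals cover counting error only, since each condition had 1 library per line. The order of the 3 changes is wider than counting error, but the difference between lines has no replicate check. The keratins KRT8 and KRT18 were also lower after si-MALAT1 in each line. KRT8 was at 1780 and 793 TPM in A549, 309 and 243 TPM in H460, and 138 and 123 TPM in H1299, control first. KRT18 was at 2920 and 1240 TPM, 363 and 236 TPM, and 342 and 335 TPM in the same order. EPCAM was higher in each line. KRT19 and CDH1 were higher in A549, while KRT19 was lower in H460. The part of these markers, and of COL1A1, in the UGDH values was not tested. UGDH was the only 1 of the 9 genes lower by at least 1.5-fold in the 3 lines, where 1.28% of 17834 genes with a read in every library were, and 0 of the 9 were higher by that much in each line (1.19% of genes); this count repeats the choice of UGDH and supports nothing further.

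**Figure D1:**
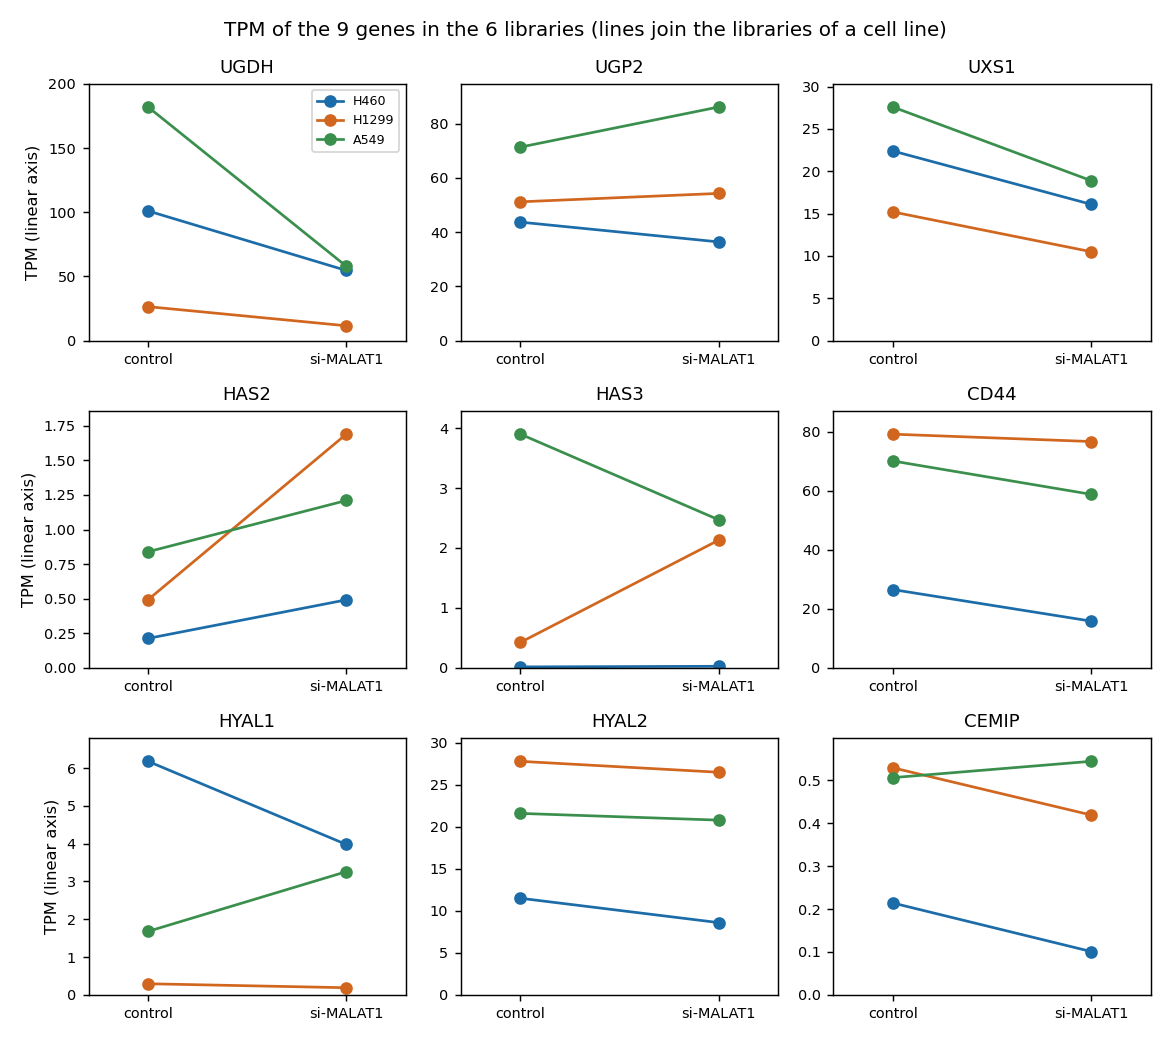
TPM of each of the 9 genes (linear vertical axis, a separate scale per gene) in the control and si-MALAT1 library of H460, H1299, and A549; each point is 1 library and lines join the libraries of a cell line. UGDH is at 182 and 57.9 TPM in A549, HAS2 is higher after si-MALAT1 in each line, and HAS3, HYAL1, UGP2, and CEMIP slope in different directions between lines.

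UGP2, the enzyme upstream of UGDH (chromosome 2, 63840969 to 63891562), differed little. H460 had 5434 and 4757 reads, H1299 6282 and 5852, and A549 5388 and 7229, control first. In this order of lines, the log2 fold changes were -0.11 (-0.17 to -0.05), 0.03 (-0.02 to 0.08), and 0.28 (0.23 to 0.33), so the gene was slightly lower in H460 and slightly higher in A549. The ratio of UGDH to UGP2 in TPM was 2.3 and 1.5 for H460, control first, and 0.516 and 0.212 for H1299. For A549 it was 2.55 and 0.672, so that UGDH was the more abundant transcript in the A549 control and UGP2 after si-MALAT1.

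UXS1, which consumes the product of UGDH (chromosome 2, 106093303 to 106194336), was lower after si-MALAT1 in each line. H460 had 2689 and 1988 reads, H1299 1823 and 1083, and A549 1971 and 1507. Its log2 fold changes in this order were -0.35 (-0.44 to -0.27), -0.62 (-0.73 to -0.51), and -0.53 (-0.63 to -0.43), with a mean of -0.50 ± 0.14 (SD, n = 3 lines). Among all genes, 18.8% were lower in the 3 lines by any size. The ratio of UGDH to UXS1 in TPM nevertheless also went down, to 3.39 from 4.49 in H460, to 1.09 from 1.74 in H1299, and to 3.06 from 6.61 in A549, since UGDH had the larger change in each line.

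HAS2, the synthase that makes long hyaluronan chains, was the only 1 of the 9 genes higher after si-MALAT1 in each line (chromosome 8, 121612116 to 121641440). Its reads were few, namely 53 and 126 for H460, 121 and 361 for H1299, and 125 and 201 for A549. Each si-MALAT1 library exceeded its own control, although the scaled count of the H460 si-MALAT1 library (123) lay between those of the H1299 control (95.9) and the A549 control (165). The scaled counts were 2.49-fold, 3.24-fold, and 1.45-fold higher, or log2 1.31 (0.86 to 1.82), 1.70 (1.41 to 2.02), and 0.54 (0.21 to 0.87). For comparison, 21.4% of all genes were higher in the 3 lines by any size. Even after si-MALAT1, HAS2 was at 0.491, 1.69, and 1.21 TPM in H460, H1299, and A549. HAS2 shares 251 exonic bases, 5.9% of its own, with HAS2-AS1 on the opposite strand, which had 6 to 28 reads per library, and whether reads were assigned by strand is not stated.

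HAS3, the synthase of shorter chains (chromosome 16, 69105653 to 69118719), had no common direction. It was almost undetected in H460, with 4 and 6 reads (0.0134 and 0.0237 TPM), and the interval of its log2 fold change there, 0.55, ran from -1.41 to 2.93. In H1299, HAS3 went from 105 to 456 reads, 4.71-fold higher on scaled counts (log2 2.24, 1.94 to 2.57), the largest change among the 27 of the 9 genes in 3 lines. In A549 it went from 559 to 400 reads, a log2 change of -0.63 (-0.82 to -0.44). The ratio of HAS3 to HAS2 in TPM was 0.859 and 1.26 in H1299 but 4.65 and 2.04 in A549, and at most 0.063 in H460, so the leading synthase transcript was HAS2 in both H460 libraries and HAS3 in both A549 libraries. HAS1, the remaining synthase, had 0 reads in all 6 libraries. HAS3 shares 365 exonic bases, 7.3% of its own, with CHTF8 and DERPC on the opposite strand; CHTF8 (1374 to 2236 reads) and DERPC (1011 to 2076 reads) were both well above the 4 and 6 reads of HAS3 in H460.

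CD44, the hyaluronan receptor (chromosome 11, 35139168 to 35232402; 27 annotated transcripts, counted here as 1 gene), was at the highest TPM of the 9 genes in H1299. H460 had 6658 and 4154 reads, H1299 18527 and 15850, and A549 10684 and 9614. The matching log2 fold changes were -0.60 (-0.66 to -0.54), -0.09 (-0.12 to -0.06), and -0.30 (-0.34 to -0.26), so the gene was lower in each line and past 1.5-fold in H460 alone. The H460 libraries, at 26.5 and 15.8 TPM, were below the H1299 libraries (79.2 and 76.7 TPM) and the A549 libraries (70.1 and 58.8 TPM).

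The hyaluronidases HYAL1 and HYAL2, which are neighbours on chromosome 3 (50299889 to 50312951 and 50317790 to 50322850, minus strand), behaved differently. Reads of HYAL1, the lysosomal enzyme, numbered 720 and 518 for H460, 47 and 27 for H1299, and 125 and 262 for A549. In A549 its log2 fold change was 0.92 (0.61 to 1.24), a 1.89-fold higher scaled count, against -0.39 (-0.56 to -0.23) in H460 and -0.65 (-1.41 to 0.04) in H1299. HYAL2 is anchored at the cell surface, and its reads numbered 1561 and 1254 for H460, 3749 and 3079 for H1299, and 1770 and 1840 for A549. The changes of HYAL2 were smaller than those of HYAL1 in each line, at log2 -0.23 (-0.34 to -0.13), -0.15 (-0.22 to -0.08), and -0.09 (-0.18 to 0.01). HYAL2 was the more abundant of the pair per length in all 6 libraries, as the ratio of HYAL1 to HYAL2 in TPM was 0.539 and 0.462 (H460), 0.0106 and 0.00712 (H1299), and 0.0775 and 0.157 (A549).

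CEMIP, a secreted hyaluronan-binding protein needed for its depolymerization (chromosome 15, 80779370 to 80951771), was at most at 0.544 TPM in any library. H460 had 93 and 46 reads, H1299 225 and 156, and A549 130 and 156. The matching log2 fold changes were -0.92 (-1.48 to -0.41), -0.39 (-0.70 to -0.10), and 0.12 (-0.23 to 0.47), so CEMIP was lower in H460 and H1299 while the A549 interval included 0. CEMIP shares 203 exonic bases, 2.7% of its own, with MESD on the opposite strand (1379 to 3641 reads).

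**Figure D2:**
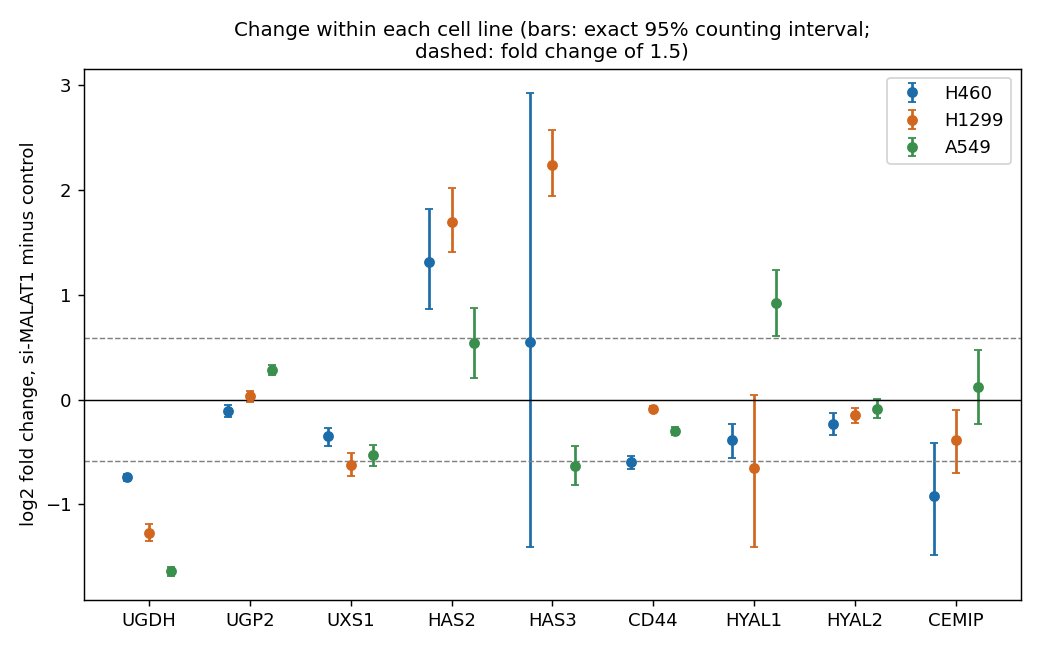
Log2 fold change, si-MALAT1 minus control, of scaled read counts plus 1 for the 9 genes (horizontal axis) in H460, H1299, and A549; points are 1 pair of libraries, bars are exact 95% intervals for counting error, and dashed lines mark a fold change of 1.5. UGDH lies below the lower line in the 3 lines, and HAS3 ranges from -0.63 in A549 to 2.24 in H1299.

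By the fold change of 1.5, 1 of the 9 genes was higher and 3 were lower in H460, against 9.5% and 10.3% of all genes. In H1299, 2 were higher and 3 lower, against 11.7% and 11.4%, and in A549, 1 was higher and 2 lower, against 11.5% and 11.4%. The rule itself fixed 1 of the lower genes in each line, UGDH. The genes past the fold change besides UGDH were HAS2, CD44, and CEMIP in H460, HAS2, HAS3, UXS1, and HYAL1 in H1299, and HYAL1 and HAS3 in A549. HYAL1 in H1299 rested on 47 and 27 reads, and its counting interval (-1.41 to 0.04) included 0. The median log2 fold change of the 9 genes was -0.35 in H460, -0.15 in H1299, and -0.09 in A549, beside 0.02, 0.02, and 0.01 for all genes.

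When each line was a pair in the edgeR quasi-likelihood fit, 0 of the 8 genes other than UGDH passed an adjusted p of 0.05, where 0.00523% of 19122 genes passed. This share is 1 gene, MALAT1 (edgeR adjusted p = 0.0381), whose call was kept in 3 of 7 alternative settings. With so few libraries, 0 of 8 does not show an absence of change. At an unadjusted p under 0.05 there were 3 of the 8, namely UXS1, HAS2, and CD44, against 15% of all genes. The fitted log2 changes were -0.52 ± 0.11 (SE) for UXS1, with an edgeR adjusted p of 0.13, 1.17 ± 0.30 for HAS2, with 0.173, and -0.35 ± 0.14 for CD44, with 0.313. The remaining 5 genes had edgeR adjusted p values of 0.499 for HYAL2, 0.586 for CEMIP, 0.648 for HAS3, 0.895 for UGP2, and 0.987 for HYAL1. The fitted change of HAS3, 0.74 ± 0.63, turned to -0.41 without the H1299 pair and was 1.84 without the A549 pair. DESeq2's Wald test passed 1 of 6 genes with an adjusted p, UXS1, at -0.50 ± 0.13 and an adjusted p of 0.00367, where 10.2% of all genes passed. HAS2 and CEMIP received no adjusted p from DESeq2.

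Levels between cell lines were compared in the same fit, with 2 libraries per line (1 control and 1 si-MALAT1) and the treatment as a covariate; the 3 comparisons share libraries. UGDH was lower in H1299 than in both other lines. It was 5.49-fold lower in H1299 than in H460 (log2 -2.46 ± 0.23, edgeR adjusted p = 0.000402) and 6.21-fold higher in A549 than in H1299 (2.63 ± 0.24, edgeR adjusted p = 0.000384). Between A549 and H460 the difference was 0.18 ± 0.22 (edgeR adjusted p = 0.569) and did not exceed the spread.

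UXS1 was, like UGDH, lowest in H1299. It was 1.9-fold lower in H1299 than in H460 (-0.93 ± 0.14, edgeR adjusted p = 0.00219) and 1.86-fold higher in A549 than in H1299 (0.90 ± 0.14, edgeR adjusted p = 0.00288). The difference between A549 and H460 was -0.03 ± 0.14 (edgeR adjusted p = 0.884). UGP2 differed from both, with its highest level in A549, 1.62-fold above H460 (edgeR adjusted p = 0.0137) and 1.57-fold above H1299 (edgeR adjusted p = 0.0131), and a difference of 0.04 ± 0.15 between H1299 and H460 (edgeR adjusted p = 0.832). The call against H460 was lost without the H460 si-MALAT1, A549 control, or A549 si-MALAT1 library (edgeR adjusted p = 0.0954, 0.0608, and 0.178), and the call against H1299 without the H1299 or A549 si-MALAT1 library (0.0556 and 0.173).

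CD44 and HYAL2 were lowest in H460. CD44 was 2.81-fold higher in H1299 (1.49 ± 0.17, edgeR adjusted p = 0.000761) and 2.52-fold higher in A549 (1.34 ± 0.17, edgeR adjusted p = 0.00187), and these 2 lines differed by -0.16 ± 0.17 (A549 minus H1299, edgeR adjusted p = 0.464). HYAL2 was 2.1-fold higher in H1299 (edgeR adjusted p = 0.000975) and 1.7-fold higher in A549 than in H460 (edgeR adjusted p = 0.00566). The A549 call of HYAL2 was lost without the A549 control library (0.0592) or the A549 si-MALAT1 library (edgeR adjusted p = 0.082).

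HYAL1 had the opposite order, highest in H460 and lowest in H1299. H1299 was 19.4-fold below H460 (-4.27 ± 0.46, edgeR adjusted p = 0.000614), and A549 was 7.87-fold above H1299 (2.98 ± 0.45, edgeR adjusted p = 0.00271). A549 was below H460 by log2 -1.30 ± 0.40 (edgeR adjusted p = 0.0459), a call that was lost without the H460 control (0.174) or the A549 control library (edgeR adjusted p = 0.302). The size of both A549 differences turned on the A549 libraries: without the control they were 3.68 (against H1299) and -0.63 (against H460), and without the si-MALAT1 library 2.23 and -2.07.

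Of the synthases, HAS3 had the widest range between lines among the 9 genes. A549 was 138-fold above H460 (7.11 ± 0.91, edgeR adjusted p = 0.00196) and H1299 43.4-fold above H460 (5.44 ± 0.90, edgeR adjusted p = 0.00327), where H460 had 4 and 6 reads. Without the A549 control library the first difference was 5.85, and without the A549 si-MALAT1 library 8.41; without the H1299 control library the second was 6.55, and without the H1299 si-MALAT1 library 3.89. A549 and H1299 differed by 1.67 ± 0.67 (edgeR adjusted p = 0.0846). This became 3.03 without the H1299 si-MALAT1 library (0.00543) and 2.99 without the A549 si-MALAT1 library (edgeR adjusted p = 0.0097), but 0.38 without the H1299 control library (0.495) and 0.46 without the A549 control library (edgeR adjusted p = 0.533). HAS2 was 2.58-fold higher in A549 (edgeR adjusted p = 0.0306) and 2.25-fold higher in H1299 than in H460 (edgeR adjusted p = 0.0377). Without the H460 control library the edgeR adjusted p of HAS2 was 0.111 in both comparisons, and without the H460 si-MALAT1 library it was 0.0741 and 0.0954. Without the A549 control library the first was 0.238, and without the H1299 si-MALAT1 library the second was 0.275.

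CEMIP was 2.83-fold higher in A549 (edgeR adjusted p = 0.0211) and 2.42-fold higher in H1299 than in H460 (edgeR adjusted p = 0.0265). The A549 call was lost without the H460 si-MALAT1, A549 control, or A549 si-MALAT1 library (edgeR adjusted p = 0.105, 0.0523, and 0.169). The H1299 call was lost without the H460 si-MALAT1, H1299 control, or H1299 si-MALAT1 library (edgeR adjusted p = 0.136, 0.106, and 0.086).

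In all, 7 of the 9 genes passed the test between A549 and H460 (38.2% of all genes did), 4 between A549 and H1299 (48.9%), and 8 between H1299 and H460 (52.6%). The lines differ widely across the transcriptome, and shares of 9 genes against these backgrounds are not read as particular to hyaluronan metabolism. The markers CDH1, EPCAM, KRT19, VIM, COL3A1, and COL1A1 also differed in level between the lines, as given above, and their part in these differences was not tested.

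**Figure D3:**
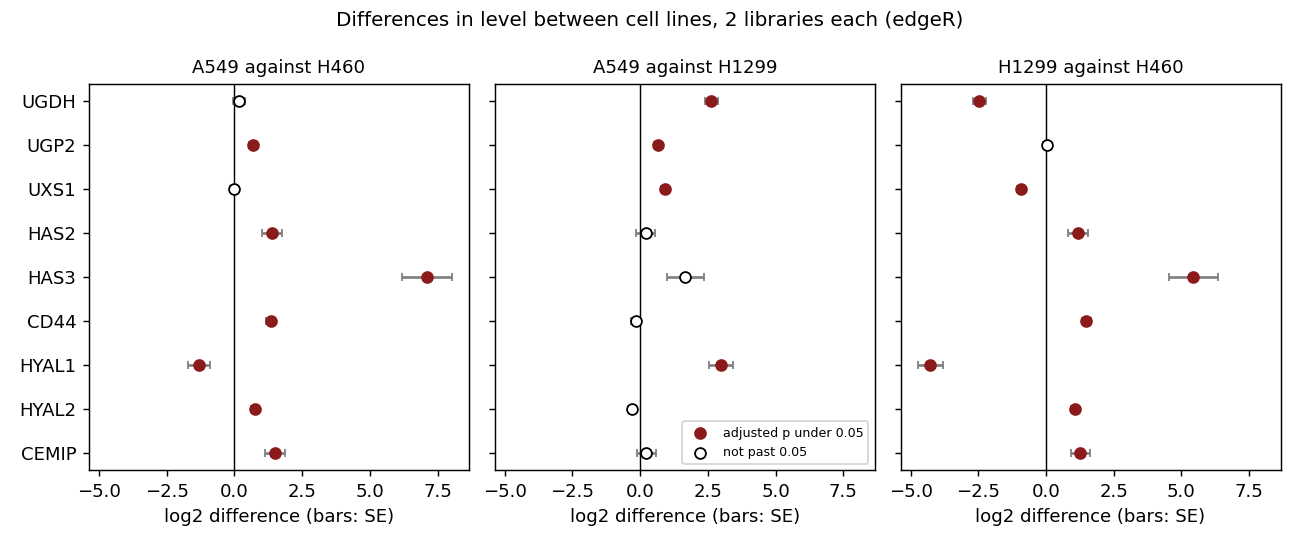
Log2 difference in level between cell lines for the 9 genes in the edgeR fit, 2 libraries per line; bars are standard errors, filled points passed an adjusted p of 0.05, and open points did not. UGDH and UXS1 are lower in H1299 than in A549 and H460, while HAS3 is at 7.11 between A549 and H460.

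Across the 6 libraries, the genes whose log2 scaled counts followed UGDH most closely were GPS1 (Pearson r = 0.998), COQ5 (0.996), STAT5B (0.996), AJUBA (0.993), and ZNF263 (0.992), out of 15902 genes ranked. GPS1 is a subunit of the COP9 signalosome, COQ5 a methyltransferase of coenzyme Q synthesis, STAT5B a cytokine-activated transcription factor, AJUBA a LIM domain protein, and ZNF263 a zinc finger protein. A high r did not mean a change of like size after si-MALAT1, since GPS1 was at -0.09, -0.20, and -0.28 on the log2 scale in H460, H1299, and A549, while STAT5B was at -0.88 in H460 and -1.14 in A549. Among the 8 other genes, UXS1 stood at r = 0.991, the 9th rank of 15902, followed by HYAL1 at 0.790 and UGP2 at 0.339. HAS2 (-0.477), HAS3 (-0.230), CD44 (-0.357), HYAL2 (-0.523), and CEMIP (-0.185) had a negative r. By their measured changes, CD44 and HYAL2 were nevertheless lower after si-MALAT1 in each line, as UGDH was. The 6 points are pairs from 3 lines, and the low UGDH level in H1299 enters every r, so these values describe likeness only.

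The wider pathway was taken from 6 gene lists. Of 58 listed genes tested with edgeR as pairs after si-MALAT1, 0 passed an adjusted p of 0.05 and 17 had an unadjusted p under 0.05 (15% of all genes), while 11 of 53 passed in DESeq2 (10.2% of all genes), 7 higher and 4 lower. Between lines, 39 of the 58 passed for A549 against H460 (38.2% of all genes), 40 for A549 against H1299 (48.9%), and 35 for H1299 against H460 (52.6%). Of 15 genes that supply UDP-sugars, 4 were higher and 5 lower in the 3 lines (21.4% and 18.8% of all genes, by any size), with medians of 0.04, -0.12, and 0.06 in H460, H1299, and A549. HK2, a hexokinase at the entry of glycolysis, had log2 changes of -0.91, -0.90, and -0.85 (edgeR adjusted p = 0.0734, DESeq2 5.55e-06). It was the only 1 of the 15 lower by 1.5-fold in each line, where 1.28% of all genes were.

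Of the 4 UDP-sugar transporters, 3 were higher in the 3 lines (21.4% of all genes), with medians of 0.25, 0.27, and 0.28. SLC35D2 had 15.2 and 21.3 TPM (H460), 66.8 and 101 TPM (H1299), and 26.9 and 48.1 TPM (A549), control first, with log2 changes of 0.61, 0.51, and 0.86 (edgeR adjusted p = 0.106, DESeq2 3.61e-05). SLC35D1, which carries UDP-glucuronic acid into the endoplasmic reticulum, was at 0.41, 0.35, and 0.39 (edgeR adjusted p = 0.196, DESeq2 0.00745).

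Of 18 genes for the linker and chains of sulfated glycosaminoglycans with reads in every library, 7 were higher and 3 lower in the 3 lines, beside 21.4% and 18.8% of all genes. Reads of CHSY1, a chondroitin synthase, numbered 3749 and 1843 for H460, 2796 and 1462 for H1299, and 1441 and 800 for A549. Its log2 changes were -0.94, -0.80, and -0.99 (edgeR adjusted p = 0.0734, DESeq2 3.94e-11). CHSY1 was the only 1 of the 18 lower by 1.5-fold in each line, where 1.28% of all genes were. CHSY3, of the same family, was at 0.48, 0.49, and 0.80 (edgeR adjusted p = 0.151, DESeq2 0.0142), and XYLT2, which attaches xylose to the core protein, at 0.48, 0.55, and 0.42 (edgeR adjusted p = 0.134, DESeq2 4.78e-05). The list medians were -0.02, 0.30, and 0.05.

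Of 5 further genes of hyaluronan synthesis and breakdown with reads in every library, HEXA, a lysosomal hexosaminidase subunit, was at 0.34, 0.54, and 0.30 (edgeR adjusted p = 0.214, DESeq2 0.00703). CEMIP2, a cell surface hyaluronidase that passed the test between A549 and both other lines, had 13.5 and 9.53 TPM in H460, 8.08 and 16.5 TPM in H1299, and 76.1 and 57.7 TPM in A549. CEMIP2 was thus above CEMIP in every library. Of 23 other hyaluronan receptors and binding proteins, 5 had reads in every library and 4 had no read, and the medians of the 5 were -0.03, 0.07, and -0.18. VCAN, a large proteoglycan that binds hyaluronan, separated the lines rather than the treatments, with 86.7 and 74.4 TPM in A549, 3.42 and 4.88 TPM in H1299, and 0.0940 and 0.0839 TPM in H460.

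Of 5 CD44 partners with reads in every library, the medians were 0.22, 0.50, and -0.03. EZR (ezrin), which links CD44 to actin, was at -0.55, -0.25, and -0.78 (edgeR adjusted p = 0.172, DESeq2 0.00742), while RDX (radixin) of the same family was at 0.47, 0.50, and 0.21 (edgeR adjusted p = 0.232, DESeq2 0.0112). MSN (moesin), also of this family, was at 0.05, 0.68, and 0.21 (edgeR adjusted p = 0.43, DESeq2 0.253).

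**Figure D4:**
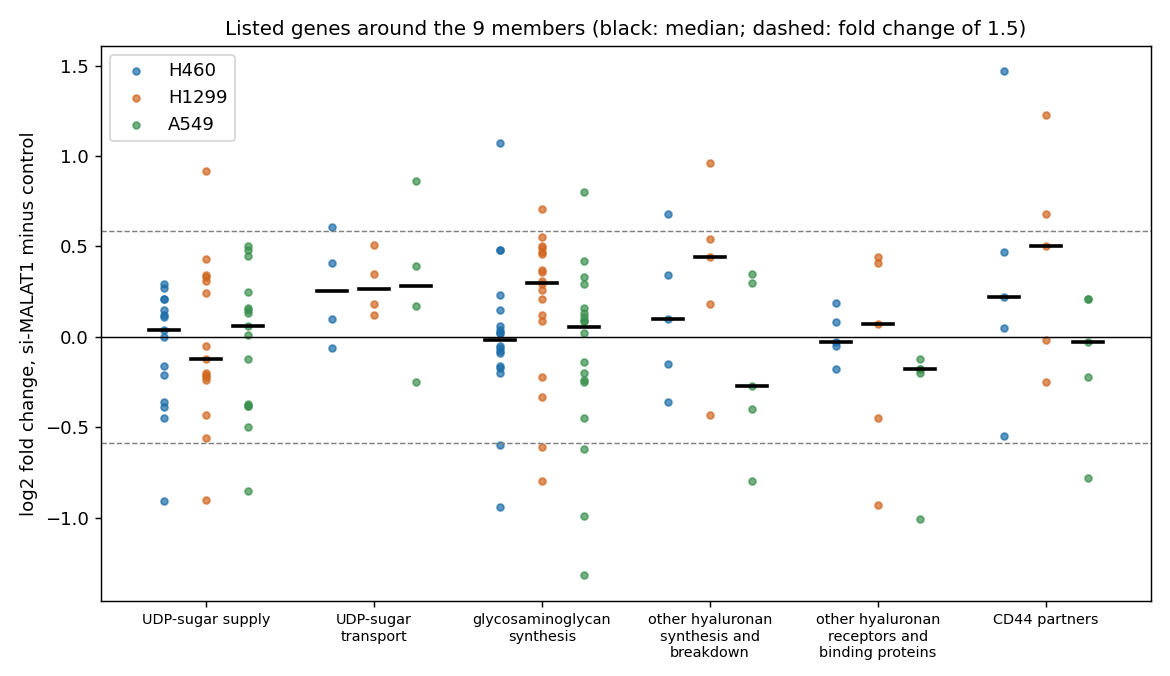
Log2 fold change, si-MALAT1 minus control, of listed genes with reads in every library, by gene list (horizontal axis) and cell line; each point is 1 gene, black bars are medians, and dashed lines mark a fold change of 1.5. The list medians lie between -0.27 and 0.50, and most genes lie between the dashed lines.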

How the data were processed

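Total RNA of H460, H1299, and A549 cells (1 control and 1 si-MALAT1 library each) was sequenced after ribosomal RNA removal with a stranded kit. Per the labels, the authors used Trimmomatic, HISAT2 2.1.0, and StringTie 1.3.4b; GRCh38 and hg19 are both named, and the deposited annotation is GRCh38. Where the control cells' transfection and strand-specific counting are concerned, details are not given in the sources used here. The deposited table holds raw read counts per gene beside TPM and FPKM values normalized by the authors; columns of the authors' own comparisons (fold changes, p-values) and 18 other sample columns were not used.

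Read counts were tested with edgeR 4.0.16 (quasi-likelihood, TMM, filterByExpr on treatment, cell line plus treatment, 19122 genes, 2 residual degrees of freedom, Benjamini-Hochberg over all genes) and, as an alternative, DESeq2 1.42.0, in R 4.3.3. Within a line, log2 fold changes used counts scaled by median-of-ratios size factors plus 1, with 95% Clopper-Pearson intervals. TPM, the authors' values, served for levels between genes. The cell line is the block: deviations of same-line libraries correlated at 0.94, 0.96, and 0.94 over 15903 genes. With 1 library per line and condition, the edgeR p-values after si-MALAT1 and between lines rest on the same estimate of the spread. That spread is what cell line plus treatment leave over, namely how unevenly the lines changed after si-MALAT1. No replicate cultures enter it. The fit was also run on simulated counts for the si-MALAT1 comparison over 19122 genes. Those counts had no differences between lines and a fixed spread, so the run does not show how the fit performs on the real libraries.

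The 9 genes, the 6 lists, and the UTR words were chosen with earlier results of these data known. Named genes were all 9, and listed genes that passed a test, changed by 1.5-fold in the same direction in the 3 lines, or were the only measured one of their kind, the 5 genes most like UGDH, and genes overlapping a member. Results for some listed genes are not reported here.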

Additional observations from a re-analysis of the deposited data

Results flagged for a closer look

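Opposite directions between lines were seen for 3 of the 9 genes, with counting intervals that do not include 0. UGP2 was at a log2 fold change of -0.11 in H460 and 0.28 in A549. HAS3 was at 2.24 in H1299 and -0.63 in A549. HYAL1 was at -0.39 in H460 and 0.92 in A549. With 1 library per line and condition, the difference between lines was not tested for any of them.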

How the results depend on the processing

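With 1 library per line and condition, counting intervals of HAS3 in H460, of HYAL1 in H1299, and of HAS2 and CEMIP are wide, and no setting replaces replicate cultures; no called result changed direction. After si-MALAT1, DESeq2 called 1 of the members against 0 in edgeR, and 11 listed genes against 0; leaving out 1 pair gave 0 to 1 listed genes, the 1 being CHSY1 without H460. Leaving out 1 library left 2 to 7 member calls between A549 and H460 (7 with all libraries; 4 without the H460 si-MALAT1 library, 2 without the A549 control library, and 4 without the A549 si-MALAT1 library), and 18 to 46 listed genes (39 with all; 19 without the A549 control and 18 without the A549 si-MALAT1 library). Between A549 and H1299 it left 24 to 45 listed genes (40 with all; 24 without the A549 control library) and 4 members, and between H1299 and H460 6 to 8 members (8 with all). Without the cell line or treatment block (no pairing), 0 members passed after si-MALAT1 and 6, 4, and 7 passed between A549 and H460, A549 and H1299, and H1299 and H460; HAS2 lost both calls (adjusted p = 0.191 and 0.156 in edgeR), as it did with no filter on low counts (0.0583 and 0.0636 in edgeR), where HYAL1 was also lost between A549 and H460 (edgeR adjusted p = 0.083). DESeq2 called HYAL2 between A549 and H1299 (adjusted p = 0.0463). Calls of UGDH, UXS1, and HYAL1 between A549 and H1299, and of UGDH, UXS1, HAS3, CD44, HYAL1, and HYAL2 between H1299 and H460, passed in all 10 alternatives, as did HAS3 and CD44 between A549 and H460. The 12 of 27 changes past 1.5-fold became 7 with log2(TPM + 1) and 6 with log2(FPKM + 1), scales on which adding 1 shrinks the low genes; TPM also moved the median of all genes in H460 by -0.13, where UGDH was at -0.87. Adding 10 reads or scaling by total reads kept all 27 changes within their counting intervals.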
